A study of Caenorhabditis elegans with 34 samples.

Results

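Adult worms of the glp-4(bn2) strain were compared with wild-type adults to list the RNAs whose level in the whole animal differed between the strains. The 7 adult arrays of the series, of 34 arrays in all, were taken: 4 of glp-4(bn2) young adults and 3 of wild-type (N2) young adults. Every probe with at least 2 values in each group was tested, which left 11402 of 13323 probes, and genes that carry only a sequence name were kept.

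Each adult array set RNA of one synchronized worm batch (green) against a pooled wild-type reference RNA (red), so every value used here is the log2 ratio of worm RNA over that pool, with base 2 assumed because the labels do not name the base. The same pool design was used for glp-4 and wild-type larvae at stages L2, L3 and L4, and 5 further arrays compared fem-3(q23) worms, whose germ line makes sperm only, with fem-1(hc17) worms, whose germ line makes oocytes only, on the same slide. In bn2 worms the loss of germ cells depends on temperature, and the labels do not state at which temperature the adult batches were grown. Replicates are numbered by worm batch: glp-4 has batches 1 to 4, and wild type has batches 2, 3 and 4.

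The germ line of the C. elegans hermaphrodite makes sperm during the last larval stage and oocytes in the adult. Its cells hold many of the animal's nuclei, pass through meiosis, keep small RNA machinery in perinuclear germ granules, and load RNA and ribosomes into oocytes for the embryo. glp-4 encodes a valyl-tRNA synthetase, an enzyme that somatic cells also use. In whole worms, fewer germ cells and less RNA per cell cannot be told apart, and a ratio within an array does not give an amount per worm.

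The adult arrays held 10948 to 11696 values each, and their medians ran from -0.224 to -0.05. Across 10143 probes, glp-4 arrays correlated with each other at 0.693 to 0.845 and with wild-type arrays at 0.055 to 0.241. In wild type, batches 2 and 4 correlated at 0.847 and batch 3 stood apart, at 0.666 and 0.651 with them. The title of glp-4 batch 1 carries the code T5 and the titles of the remaining adult arrays T4, codes that the labels do not explain, and this array correlated with the rest of its group at 0.693 to 0.715. Results that rest on counts are therefore also given without wild-type batch 3 and without glp-4 batch 1. Marker genes of the tissues were present by name for some tissues only. All 5 germ line markers present by name (mip-1, mip-2, lotr-1, tost-1 and syp-6) fell in glp-4. The marker list was made with earlier results of these data known, so this is a description and not an independent check. The sperm and oocyte markers are described with their groups. Intestine markers, 27 of the 28 tested being carboxylesterases, had 12 of 28 higher and 1 lower (median 0.66), and 8 higher with the adult arrays alone. Neuron markers, all 13 of them nlp genes, had 4 higher and 0 lower (median 0.54), and 2 higher with the adult arrays alone. Over all tested probes 19.6% were higher. Both tissue labels thus rest mostly on the name of a gene family. The same genes return below in their gene groups, so those counts are not a separate result. Markers of early embryos, gonadal sheath, muscle and cuticle carried no name among the probes and were not measured here.

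In glp-4 adults 2313 probes were lower (20.3% of 11402) and 2231 were higher (19.6%), by limma with a Benjamini-Hochberg adjusted p under 0.05. Among these, 1676 were lower at least 2-fold (14.7%) and 1040 were higher at least 2-fold (9.12%). The downward changes reached further: called values ran from -7.38 to 4.61 log2, glp-4 minus wild type. Over all tested probes the median difference was 0.17 log2, and group medians below are to be read against it and not against 0. Of 10143 probes with a value on all 7 arrays, the arrays of the strains did not overlap for 3987 (39.3%), with glp-4 lower in 1994 (19.7%) and higher in 1993 (19.6%). Without wild-type batch 3 the counts were 2379 lower and 2141 higher, and without glp-4 batch 1 they were 2243 and 2188. When the adult arrays were fitted alone, 1802 were lower and 1249 higher, and 2907 of these 3051 were called the same way with all arrays. Of 1921 probes left out, 1381 had no value on any adult array, 260 had values in glp-4 but fewer than 2 in wild type, and 166 had values in wild type but fewer than 2 in glp-4.

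Names came from the platform annotation and the gene table of assembly WBcel235. Of the tested probes 4815 had a name, 3989 of them a sequence name only. Genes with a sequence name only had 801 lower (20.1%) and 765 higher (19.2%), close to the shares of all probes. The 826 probes with a gene-class symbol had 239 lower (28.9%) and 162 higher (19.6%). The 6587 probes without a name had 1273 lower (19.3%) and 1304 higher (19.8%).

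The 10 named genes with the largest fall in glp-4 all carried sequence names only, and no role is given to them in the tables used. C05C10.5 on chromosome II stood at -4.39, -4.55, -4.24 and -4.44 in glp-4 adults, against 2.37, 0.84 and 1.93 in wild-type adults. It fell by 6.12 ± 0.62 log2 (SE, adjusted p = 7.37e-08), and its glp-4 arrays lay within a narrow band. F10D11.3 (chromosome I) had -1.92, -3.33, -3.05 and -5.66 in glp-4, against 2.26, 3.43 and 1.82 in wild type, a difference of -5.99 ± 0.75 (adjusted p = 1.07e-06). Here the glp-4 arrays were spread over several log2 units, all below the wild-type ones. C48E7.7 (chromosome I) fell by 5.64 ± 0.58, with -2.59, -3.21, -3.47 and -3.51 in glp-4 and 2.21, 3.34 and 1.77 in wild type.

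The next 7 fell by less. F58A6.9 (II), T23B3.5 (I) and F17E9.5 (IV) changed by -5.06 ± 0.54, -4.97 ± 0.43 and -4.77 ± 0.42. T01C3.3 (V), T19H12.2 (V), F41F3.3 (V) and EEED8.3 (II) changed by -4.75 ± 0.53, -4.74 ± 0.52, -4.51 ± 0.53 and -4.43 ± 0.44. Named genes were required to have arrays that do not overlap between the strains, so the separation in these 10 is part of their choice. They divided by the fem arrays: F10D11.3, C48E7.7, F58A6.9, T23B3.5, F17E9.5 and F41F3.3 were higher in fem-3, by 5.30 to 6.34 log2, and C05C10.5, T01C3.3, T19H12.2 and EEED8.3 were higher in fem-1, by -1.47 to -4.18 on the fem-3 over fem-1 scale. In the first 6 the strain difference at L4 was -6.94 to -5.03, and in the other 4 it was -3.01 to -2.18.

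Upward changes among named genes were smaller. The gene with the largest rise was cld-1 (IV), which had 5.06, 4.97, 4.68 and 5.03 in glp-4 and 1.6, 1.57 and 0.81 in wild type (3.61 ± 0.50, adjusted p = 3.85e-06). It stood above the reference pool in every worm batch of both strains. T22B7.7 (X) rose by 3.18 ± 0.34, with 2.47, 2.42, 3.17 and 3.15 in glp-4 and -0.94, 0.55 and -0.73 in wild type. C30G12.2 (II) rose by 2.89 ± 0.45, with 2.28, 3.49, 3.15 and 2.44 in glp-4 and -0.65, 0.93 and -0.43 in wild type. In both genes wild-type batch 3 was the highest of the wild-type arrays and still lay below each glp-4 array.

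C17H12.8 (IV), amdh-1 (III), F58H1.2 (V), F01D5.1 (II) and F41C6.6 (X) rose by 2.73 ± 0.43, 2.59 ± 0.42, 2.32 ± 0.51, 2.31 ± 0.33 and 2.31 ± 0.34. The remaining pair of the 10, F55G11.6 and F55G11.7, are neighbouring genes on chromosome IV. F55G11.6 rose by 2.31 ± 0.27, with 3.30, 3.04, 3.92 and 3.66 in glp-4 and 0.80, 1.77 and 0.94 in wild type. F55G11.7 rose by 2.18 ± 0.18, with 2.83, 2.50, 2.73 and 2.84 in glp-4 and 0.33, 0.80 and 0.52 in wild type. Of the 10 genes that rose, none was called higher in fem-3, and C17H12.8, F01D5.1, F55G11.6 and F55G11.7 were called higher in fem-1, by -0.49 to -0.76.

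**Figure D1:**
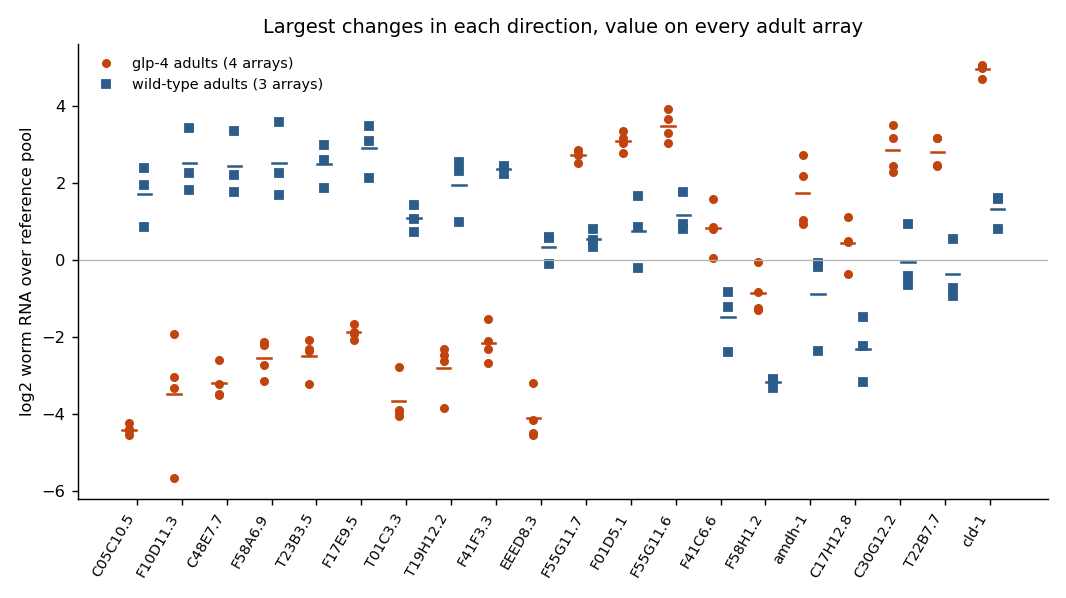
Log2 ratio of worm RNA over the reference pool on each adult array (y axis) for the 10 named genes with the largest fall and the 10 with the largest rise (x axis, ordered by change). Circles are the 4 glp-4 arrays, squares the 3 wild-type arrays and short bars the group means. Genes were chosen with no overlap between circles and squares, and the changes run from C05C10.5 at -6.12 to cld-1 at 3.61.

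The fem arrays, which the adult fit did not use, gave some of the called probes a side. Probes higher in fem-3 are termed sperm side here, and probes higher in fem-1 oocyte side. The terms name the direction on the fem arrays only and do not assign an RNA to sperm or oocytes. Of 13284 probes tested there, 2555 were higher in fem-3 (19.2%) and 2058 higher in fem-1 (15.5%). Among the 2313 probes lower in glp-4 adults, 1204 (52.1%) were higher in fem-1 and 420 (18.2%) were higher in fem-3, while 688 (29.7%) differed on neither side and 1 was not tested. Among the 2231 probes higher in glp-4 adults, 70 (3.14%) were higher in fem-1 and 475 (21.3%) in fem-3, and 1682 (75.4%) on neither side. So the fem-1 share was above its background of 15.5% among the lower probes and below it among the higher ones, while the fem-3 share lay near its background of 19.2% in both. With the adult arrays alone, 1010 of 1802 lower probes (56%) were on the fem-1 side and 315 (17.5%) on the fem-3 side. Dyes were not swapped on the fem arrays, so a dye effect cannot be told apart from the side, and 1 of the 5 arrays may repeat another.

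The median fem-3 excess was 3.63 log2 in the 420 lower probes and 0.75 in the 475 higher ones. On the fem-1 side the medians were -0.97 for lower probes and -0.68 for higher ones. On the adult arrays, the 420 sperm-side probes had medians of -0.60, -0.48, -0.66 and -0.37 in glp-4, against 0.99, 1.16 and 0.72 in wild type. The 1204 oocyte-side probes had medians of -0.98, -1.14, -1.04 and -1.11 in glp-4, against 0.63, 0.27 and 0.75 in wild type. Wild-type batch 3 was thus highest for sperm-side probes and lowest for oocyte-side probes among the wild-type arrays. Without it, 373 lower probes were on the fem-3 side and 1251 on the fem-1 side.

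**Figure D2:**
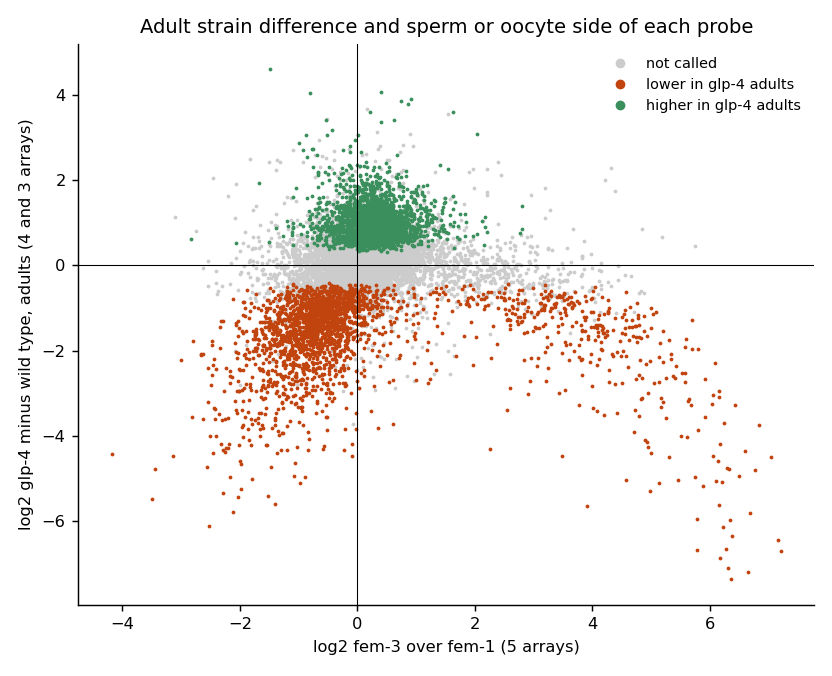
Each point is a probe, with log2 fem-3 over fem-1 on the x axis and log2 glp-4 minus wild type in adults on the y axis. Colours mark probes called lower (2313), called higher (2231) or not called. The probes far to the right, with the largest fem-3 excess, lie mostly below 0, and the 1204 probes on the fem-1 side fill the lower left.

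The same probes were followed through the larval stages. The 420 sperm-side probes had a median strain difference of 0.06 at L2, -0.35 at L3, -1.93 at L4 and -1.42 in adults. The 1204 oocyte-side probes had -0.24, -0.32, -0.55 and -1.57 at the same stages, and the 688 on neither side had -0.19, -0.28, -0.41 and -1.12. At L4, 381 of 418 tested sperm-side probes were already called lower (91.1%), against 480 of 1204 on the oocyte side (39.9%). The background at L4 was 11.8% called lower and 8.07% called higher. Leaving out each L4 array in turn moved the L4 median of the sperm side between -2.11 and -1.76 and that of the oocyte side between -0.63 and -0.40. Probes higher in glp-4 adults had medians of 0.03, 0.23, 0.47 and 0.96, and 706 of 2221 were called higher at L4 (31.8%).

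The strain difference in adults was also tested against that at L4. Over 11043 probes, 539 had a difference of differences below 0 (4.88%) and 188 above 0 (1.7%). Of the probes lower in adults, 402 on the oocyte side, 127 on neither side and 3 on the sperm side were below 0, and 21 on the sperm side were above. Of the probes higher in adults, 111 were above 0 and 0 below. The adult values enter both the choice of these probes and the difference, so the counts are a description. When only the 15 adult and L4 arrays were fitted, 253 probes passed in all, 165 of them oocyte-side and below 0. The total of 727 moved to 260, 366, 342, 398, 368, 419 and 474 without wild-type adult batch 4 or 2, wild-type L4 replicate 3 or 1, or glp-4 L4 replicate 3, 4 or 2, and to 1096 and 1121 without wild-type adult batch 3 or wild-type L4 replicate 2. The experimental details of wild-type L4 replicate 1 call it L3, against its title, and without it 258 oocyte-side probes were below 0 and 6 sperm-side probes above.

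**Figure D3:**
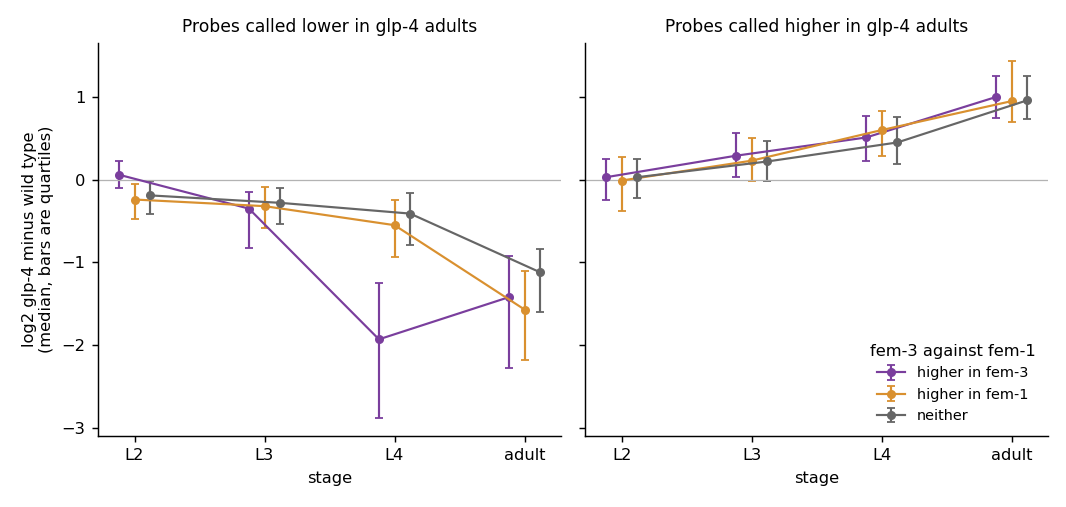
Median log2 glp-4 minus wild type (y axis) at stages L2, L3, L4 and adult (x axis) for probes called lower (left) or higher (right) in glp-4 adults. Lines are probes higher in fem-3, higher in fem-1 or neither, and bars are the quartiles over probes. The fem-3 line of the lower probes is furthest from 0 at L4, at -1.93, and the fem-1 line in adults, at -1.57.

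Gene groups were made from the symbols present on the arrays, with 1 probe per gene, and are described by counts and medians. Among tested probes with a gene-class symbol 28.9% were lower and 19.6% higher, against 20.3% and 19.6% of all tested probes. Group counts are to be read against these shares, and the groups were not tested against them. Germ granule and small RNA genes had 9 of 11 tested members lower in glp-4 and 0 higher, with a median of -1.30. mip-1 (III), whose LOTUS-domain product sits in germ granules, had -2.61, -3.47, -3.59 and -3.69 in glp-4 and 0.93, 0.71 and 1.03 in wild type. tost-1 (III) had -2.73, -3.78, -3.85 and -3.41 in glp-4 and 1.12, 0.24 and 0.96 in wild type. These genes changed by -4.23 ± 0.33 and -4.21 ± 0.29, and glp-4 batch 1 was the highest glp-4 array in both. pid-3 (I), a subunit of a complex that processes piRNA precursors, fell by 1.90 ± 0.28. lotr-1 (I), a LOTUS and Tudor domain protein, fell by 2.87 ± 0.28. gtsf-1, a small RNA cofactor, stood at 0.50 ± 0.23 and was not called, and hrde-2 and znfx-1 had no value on the adult arrays. enri-2, the member on chromosome X, fell by 1.30 ± 0.23 in adults and stood at -0.02 at L4.

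Meiosis, replication and chromosome maintenance genes had 12 of 17 lower and 0 higher (median -1.44). nse-4 (IV), a subunit of the SMC5/6 complex, had -1.74, -2.26, -2.44 and -2.14 in glp-4 and 1.25, 0.49 and 0.97 in wild type, and it fell by 3.05 ± 0.26. syp-6 (I), a component of the synaptonemal complex, had -1.63, -1.91, -2.02 and -2.07 in glp-4 and 0.59, 0.69 and 1.04 in wild type, and it fell by 2.68 ± 0.24. In both genes every glp-4 array lay below the reference pool and every wild-type array above it. Replication genes fell as well, with -2.67 ± 0.30 for the DNA polymerase delta gene pold-1, -2.45 ± 0.35 for the replisome gene ctf-4 and -1.81 ± 0.32 for the claspin gene clsp-1. dsb-3, rmh-1 and meic-1, meiotic genes with 5 values each, stood at -0.10 ± 1.14, -0.76 ± 0.94 and 0.66 ± 2.21, with errors too large for a call.

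Sperm genes had 2 of 7 lower, near the share of 28.9% among all tested probes with a gene-class symbol. On the fem arrays, 8 of the 9 were called higher in fem-3. spe-18 (II), a spermatogenesis gene, had -0.21, -0.59, -0.70 and -0.52 in glp-4 and 1.41, 3.09 and 1.74 in wild type, a difference of -2.59 ± 0.34. pei-1 (IV), a component of paternal granules in sperm, had -0.12, -0.59, 0.11 and -0.10 in glp-4 and 0.58, 1.34 and 0.61 in wild type, a difference of -1.02 ± 0.25. In both genes wild-type batch 3 was highest. The group median was -0.54, against -0.57 at L4. spe-57, spe-36, spe-51, spe-49 and spe-43 stood between -0.88 and -0.16 and were not called. Tau-tubulin kinase-like genes had 3 of 6 lower and 1 higher, with ttbk-4 and ttbk-8.1 (both IV) at -2.07 ± 0.30 and -1.28 ± 0.31. ttbk-7 rose by 0.45 ± 0.18, a call lost in 8 of its alternatives, among them without wild-type batch 2 or 4 and without glp-4 batch 1, 2 or 3.

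The msrp family, whose symbols are shared by 5 tested genes, had 4 lower and 0 higher (median -1.53), and 5 of its 6 genes were called higher in fem-3. msrp-2 (I) had -0.52, -2.31, -2.34 and -1.43 in glp-4 and 2.2, 3.79 and 1.55 in wild type. The difference was -4.16 ± 0.69 in adults and -5.56 ± 0.69 at L4. msrp-6 (II) fell by 1.53 ± 0.25. In the gldi family 4 of 7 genes fell and 1 rose; gldi-6 and gldi-11 (both II) changed by -1.21 ± 0.31 and -0.68 ± 0.16, and the call of gldi-11 was lost with the adult arrays alone. The largest change of the family was that of gldi-5 (III), at -4.20 ± 0.42 with 2 wild-type values.

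Of 5 oocyte and eggshell genes 2 fell, where 28.9% of all tested probes with a gene-class symbol were lower. memi-3 (IV), which acts in the change from meiosis to mitosis after fertilization, had -0.90, -1.64, -2.17 and -1.11 in glp-4 and 1.70, 1.23 and 1.39 in wild type. oops-1 (IV), an oocyte protein, had -0.71, -2.37, -2.25 and -0.89 in glp-4 and 1.39, 0.58 and 1.12 in wild type. They changed by -2.89 ± 0.36 and -2.59 ± 0.40, and in both, glp-4 batches 1 and 4 were above batches 2 and 3. The chondroitin proteoglycan genes cpg-19, cpg-20 and cpg-22 stood at 0.75 ± 0.42, -0.01 ± 0.27 and 0.89 ± 0.37, and the group median was -0.01. On the fem arrays memi-3 and oops-1 were higher in fem-1 (-1.57 and -1.07, fem-3 over fem-1). The cpg genes, grouped by symbol, stood at -0.05, -0.08 and -0.11 there and were on neither side.

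Splicing genes had 22 of 27 lower and 0 higher (median -1.09), and the median at L4 was -0.39, with 8 of 26 called. sluh-7 (V), a factor of the second step of splicing, had -1.71, -1.60, -2.24 and -1.64 in glp-4 and 1.14, 1.24 and 1.16 in wild type, and it fell by 2.98 ± 0.29. syf-1 (I), a spliceosome component, had -0.95, -1.43, -1.50 and -1.37 in glp-4 and 0.50, 0.10 and 0.66 in wild type, and it fell by 1.73 ± 0.19. Of 31 splicing genes tested on the fem arrays, 18 were higher in fem-1 and 0 in fem-3. ddx-46, an RNA helicase of the spliceosome, stood at 0.47 ± 0.26, the only member tested with a positive value.

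Ribosome biogenesis genes had 14 of 14 lower, from -2.78 to -0.97, with a median of -1.45. dkc-1 (III), the gene of the pseudouridine synthase dyskerin, had -1.31, -1.11, -0.91 and -1.14 in glp-4 and 1.17, 2.12 and 1.70 in wild type, a difference of -2.78 ± 0.30. nucl-1 (IV), the nucleolin gene, had -1.36, -1.18, -0.96 and -1.66 in glp-4 and 1.12, 1.57 and 1.38 in wild type, a difference of -2.65 ± 0.25. At L4 the group median was -0.52 and 6 of 14 were called lower. urb-1 was the member with the smallest fall, by 0.97 ± 0.19. Without glp-4 batch 1, or with the adult arrays alone, 13 of 14 were lower.

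Of the transcription machinery 12 of 14 members fell (median -1.15). rpap-2 (III), which acts on RNA polymerase II, was at -1.78 ± 0.23, and gtf-2H3 (III), a TFIIH subunit, at -1.71 ± 0.23. ints-7, ints-2 and ints-13, subunits of the Integrator complex, changed by -2.05 ± 0.28, -1.4 ± 0.28 and -0.85 ± 0.27. Translation genes had 6 of 8 lower (median -1.16): eif-2A (II), an initiation factor gene, was at -2.16 ± 0.23 and dph-5 (II), an enzyme of diphthamide synthesis on an elongation factor, at -1.29 ± 0.23. Of the eIF2B subunits, which recycle an initiation factor, the genes eif-2Bdelta, eif-2Bepsilon and eif-2Balpha changed by -1.30 ± 0.24, -0.89 ± 0.26 and -0.57 ± 0.16, and eif-2Bbeta stood at -0.13 ± 0.28. The median of the translation group at L4 was -0.18, with 1 of 8 called.

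tRNA modification genes had 5 of 6 lower and a median of -1.43. wdr-4 (III), a subunit of the tRNA guanosine methyltransferase, had -2.08, -1.33, -1.09 and -1.38 in glp-4 and 0.79, 0.25 and 0.89 in wild type, a difference of -2.11 ± 0.22. trmt-6 (I), a subunit of the tRNA adenosine methyltransferase, had -1.49, -2.12, -1.45 and -1.71 in glp-4 and 0.32, -0.34 and 0.62 in wild type, a difference of -1.89 ± 0.20. Nuclear pore and export genes had 3 of 5 lower, with thoc-7 (IV), of the THO complex, at -2.39 ± 0.42 and the nucleoporin gene npp-24 (II) at -1.14 ± 0.21. Chromatin genes had 5 of 7 lower and 1 higher. smrd-1 (III), a SWI/SNF subunit, and hira-1 (III), a histone chaperone, changed by -2.04 ± 0.23 and -2.03 ± 0.32, while zzz-1 rose by 1.01 ± 0.30.

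Ubiquitin and proteasome genes had 8 of 12 lower and 0 higher (median -0.88). rpn-13 (III), a ubiquitin receptor of the proteasome, fell by 1.08 ± 0.23, and the deubiquitinase gene usp-4 (IV) fell by 1.00 ± 0.21. GPI anchor and N-glycan genes had 6 of 10 lower (median -0.78). pgap-1 (V), which trims the lipid of GPI anchors, had -1.01, -1.48, -1.30 and -1.50 in glp-4 and 1.13, 0.16 and 0.77 in wild type, a difference of -2.01 ± 0.23. algn-6 (II), a glucosyltransferase of N-glycan assembly, fell by 1.35 ± 0.18.

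**Figure D4:**
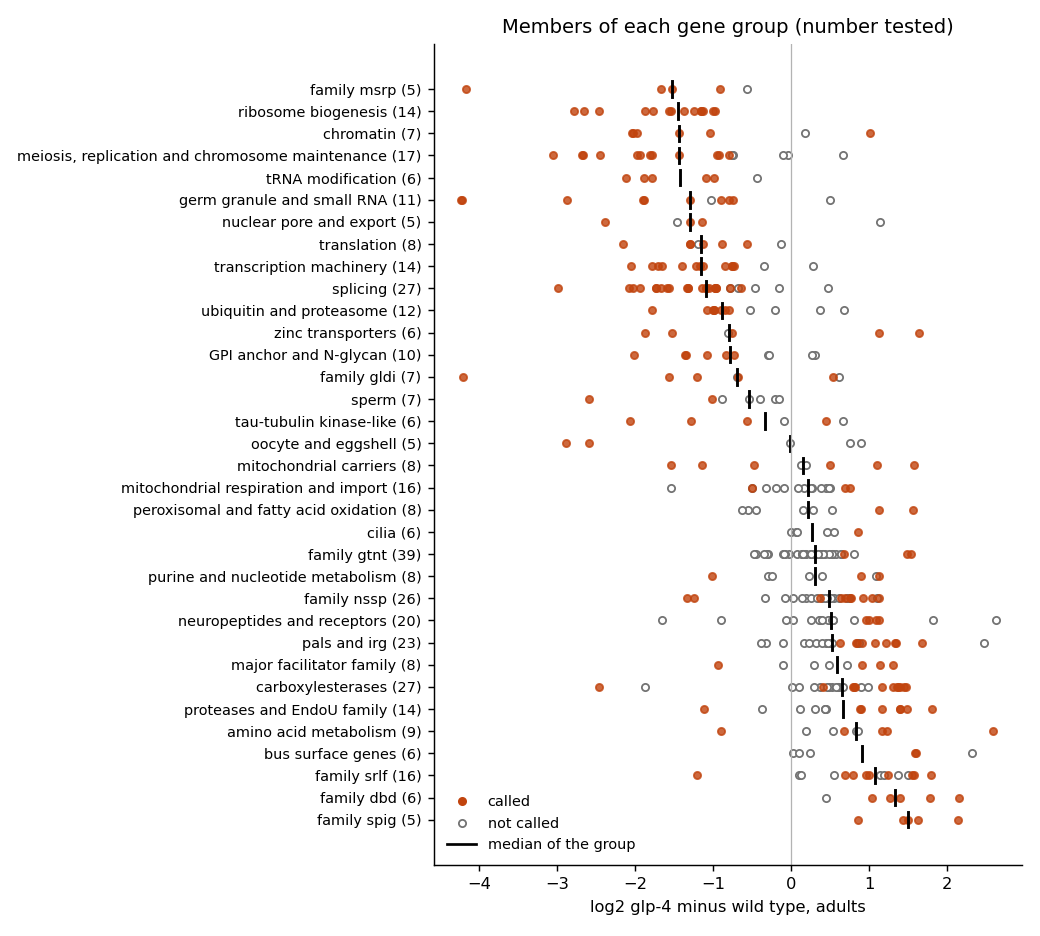
Log2 glp-4 minus wild type in adults (x axis) for each tested member of 34 gene groups (y axis, number tested in brackets). Filled points were called, open points were not, and black bars are group medians. Medians run from -1.53 in the msrp family to 1.5 in the spig family, with ribosome biogenesis at -1.45, splicing at -1.09 and carboxylesterases at 0.65.

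The groups with more higher than lower members held enzymes, transporters, infection response genes and neuropeptides. Some lay near or below the background of 19.6% higher, such as neuropeptides and receptors (4 of 20) and mitochondrial respiration (2 of 16). With the adult arrays alone, 2 neuropeptide and receptor genes and 3 of 23 pals and irg genes were higher. Carboxylesterases, a family that includes gut esterases, had 11 of 27 higher and 1 lower (median 0.65). At L4 11 of 27 were called higher, but these were not all the same genes. cest-8, cest-10 and cest-34 were called higher in adults only, and cest-1.2, cest-15 and cest-5.1 at L4 only. cest-35.1 (V) had 1.07, 0.74, 0.64 and 0.43 in glp-4 and -0.93, -0.56 and -0.68 in wild type, a rise of 1.44 ± 0.21. cest-8 (X) had 1.13, 0.46, 0.71 and 0.33 in glp-4 and -0.78, -0.68 and -0.64 in wild type, a rise of 1.36 ± 0.23. In both, glp-4 batch 1 was the highest array. cest-19 (X) was the lower member, at -2.46 ± 0.74 with 2 wild-type values.

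The group of proteases and EndoU-family genes had 7 of 14 higher and 1 lower (median 0.67), and 4 higher without wild-type batch 3. endu-1 (I), of the EndoU ribonuclease family, had 1.16, 0.12, 0.16 and 0.26 in glp-4 and -1.32, -0.97 and -0.89 in wild type. ctsa-1.1 (II), named for cathepsin A, had 2.19, 2.48, 1.89 and 1.98 in glp-4 and 0.76, 0.99 and 0.47 in wild type. They rose by 1.49 ± 0.25 and 1.4 ± 0.27, and 4 of the 5 ctsa genes were called higher. clp-8 (I), a calpain-like gene, fell by 1.12 ± 0.31, was higher in fem-3 by 1.32 ± 0.22, and lost its call without wild-type batch 3.

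In amino acid metabolism 4 of 9 genes rose and 1 fell (median 0.83). amdh-1 (III) had 1.03, 0.92, 2.18 and 2.73 in glp-4 and -0.18, -0.08 and -2.36 in wild type, so wild-type batch 4 lay far below the other wild-type arrays. pycr-1 (X), a pyrroline-5-carboxylate reductase of proline synthesis, rose by 1.23 ± 0.30, and the arginase gene argn-1 (X) by 1.16 ± 0.35. pycr-4 (IV), a paralogue of pycr-1, fell by 0.90 ± 0.19. Peroxisomal and fatty acid oxidation genes had 2 of 8 higher, near the background of 19.6%, and 1 with the adult arrays alone: acox-1.4 (I) and acox-1.6 (X), acyl-CoA oxidases of the peroxisome, rose by 1.56 ± 0.35 and 1.12 ± 0.28. In purine metabolism 2 of 8 rose and 1 fell, not far from the backgrounds of 19.6% higher and 20.3% lower. The guanine deaminase gene gda-1 (III) rose by 1.12 ± 0.30.

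Mitochondrial groups had calls in both directions. Respiration and import genes had 2 of 16 higher and 1 lower, both shares below those of all probes (19.6% and 20.3%). Their median of 0.21 was close to that of all probes. The 2 that rose, ndub-3 (II), of respiratory complex I, by 0.69 ± 0.21 and sqr-1 (III), of the sulfide quinone reductase, by 0.75 ± 0.23, were both not called with the adult arrays alone, and sqr-1 also not without wild-type batch 3 or glp-4 batch 3. Mitochondrial carriers had 3 of 8 lower and 3 higher. slc-25A21 had 1.12, 1.1, 1.14 and 1.53 in glp-4 and -0.48, -0.14 and -0.40 in wild type, a rise of 1.57 ± 0.16, and slc-25A10 rose by 1.1 ± 0.24. slc-25A32 (II) and slc-25A18.2 (IV) changed by -1.14 ± 0.18 and -1.54 ± 0.39. The 3 carriers that rose, slc-25A18.1 among them, are on chromosome X, and the 3 that fell are on II and IV.

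The zinc transporters of the ZIP family also had calls in both directions, with 3 of 6 lower and 2 higher. zipt-11 (I) had -0.96, -0.54, -0.64 and -0.87 in glp-4 and 1.66, 0.53 and 1.16 in wild type. It fell by 1.87 ± 0.29 in adults and stood at 0.03 ± 0.27 at L4. zipt-3 (II) fell by 0.76 ± 0.16 and stood at 0.01 ± 0.15 at L4. The genes that rose were zipt-13 (X), by 1.13 ± 0.32, and zipt-2.1 (IV), by 1.64 ± 0.24 with 3 glp-4 values. The calls of zipt-3 and zipt-13 were lost with the adult arrays alone. In the major facilitator family 3 of 8 were higher and 1 lower, against backgrounds of 19.6% and 20.3%, and 5 were higher without glp-4 batch 1. mfsd-8.5 and mfsd-12 (both X) rose by 1.30 ± 0.32 and 1.14 ± 0.32.

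The pals and irg genes, known from responses to infection, had 9 of 23 higher and 0 lower (median 0.52), but 3 higher with the adult arrays alone and 12 without glp-4 batch 1. pals-23 (III) had -0.07, 0.25, 0.15 and 0.32 in glp-4 and -0.68, -0.99 and -0.57 in wild type, a rise of 0.91 ± 0.18. pals-5 (I), often used as a reporter of the intracellular pathogen response, rose by 0.63 ± 0.14 and was not called with the adult arrays alone. Of the bus genes, which affect the worm surface, 2 of 6 were higher, against a background of 19.6%. They were bus-6 (V), by 1.6 ± 0.25, and bus-5 (X), by 1.58 ± 0.56. The call of bus-5 was lost without wild-type batch 3 or 4 and without glp-4 batch 1, 2 or 3. Neuropeptide and receptor genes had 4 of 20 higher, near the background of 19.6%, among them nlp-53 (X) by 1.00 ± 0.20 and nlp-55 (II) by 1.09 ± 0.23, and nlp-53 was not called with the adult arrays alone. Without wild-type batch 3 there were 6 of 19. Cilia genes had 1 of 6 higher, a share below that background, ccdc-149 by 0.86 ± 0.24, a gene named after its values were seen.

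Among symbol families, the srlf genes had 8 of 16 higher and 1 lower (median 1.07), the spig genes 5 of 5 higher (median 1.5) and the dbd genes 5 of 6 higher (median 1.33). srlf-1 (II) had 1.67, 1.48, 1.46 and 1.97 in glp-4 and -0.28, 0.73 and -0.17 in wild type. spig-9 (V) had 0.35, -0.55, -0.30 and -0.24 in glp-4 and -1.46, -1.87 and -1.50 in wild type. srlf-1, srlf-7 (IV), spig-9 and spig-12 (IV) rose by 1.55 ± 0.30, 1.57 ± 0.32, 1.43 ± 0.25 and 2.14 ± 0.47, while srlf-13 (IV) fell by 1.2 ± 0.20. dbd-19 (X) and dbd-5 (II) rose by 1.27 ± 0.33 and 1.03 ± 0.34. dbd-5 stood at 2.11 on glp-4 batch 1 and at 0.52, 0.29 and 0.46 on the other glp-4 arrays, and its call was lost in 5 alternatives, among them without glp-4 batch 1 and without wild-type batch 2. Of 5 spig genes 3 were called without glp-4 batch 1.

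Of 39 gtnt genes 3 rose and 0 fell (median 0.31), a share of higher genes below the background of 19.6%, with gtnt-12 and gtnt-14 (both V) at 1.49 ± 0.27 and 1.53 ± 0.31, and 6 rose without glp-4 batch 1 and 5 without wild-type batch 3. Of 26 nssp genes 8 rose and 2 fell (median 0.48), with 3 higher when the adult arrays were fitted alone. nssp-77 (X) and nssp-36 (III) rose by 1.03 ± 0.20 and 0.69 ± 0.15, and nssp-47 (IV) fell by 1.24 ± 0.40. The call of nssp-36 was lost with the adult arrays alone, and that of nssp-47 without wild-type batch 2 or 4.

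The shares of called probes varied by chromosome. The germ line of C. elegans is known to express few genes from the X chromosome, and counts were taken by chromosome for the 4798 tested probes with a place in the gene table. Over all chromosomes 1038 were lower (21.6%) and 922 higher (19.2%). On X, 38 of 783 were lower (4.85%) and 206 higher (26.3%). On chromosome I, 227 of 683 were lower (33.2%) and 75 higher (11%), and on III 195 of 569 were lower (34.3%) and 66 higher (11.6%). Chromosomes II and IV had 24.2% and 26.8% lower, and 17.6% and 19.6% higher. Chromosome V lay between these and X, with 160 of 1122 lower (14.3%) and 270 higher (24.1%). The order of the shares of lower probes, X below V below the rest, was the same with the adult arrays alone, with arrays centred, without wild-type batch 3 and without glp-4 batch 1, where X had 3.32%, 4.6%, 6.14% and 5.09%.

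The array medians carried the same contrast. Named X probes had medians of -0.09, 0.08, -0.08 and 0.10 in glp-4, against -0.19, -0.30 and -0.29 in wild type. Those of chromosome I had -0.37, -0.28, -0.33 and -0.24 in glp-4, against 0.13, -0.02 and 0.08 in wild type. Thus the glp-4 arrays lay above the wild-type arrays on X and below them on I, with no overlap on either. The median strain difference was 0.38 on X, 0.30 on V, 0.03 on II, 0.07 on IV, -0.24 on I and -0.20 on III.

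Of the lower probes with a place, 298 were on the sperm side, 2 of them on X, which is 0.255% of the tested X probes against 6.21% over all chromosomes. On the oocyte side there were 472, of which 24 were on X (3.07% against 9.84%). The 3 X-linked genes with the largest fall were R09F10.8, E02H4.6 and F08F1.9, and all of them were higher in fem-1. R09F10.8 had -3.19, -3.26, -3.77 and -3.53 in glp-4 and 1.1, 0.23 and 0.95 in wild type, a difference of -4.20 ± 0.46. E02H4.6 had -1.52, -3.07, -2.23 and -3.24 in glp-4 and 0.88, 0.35 and 0.84 in wild type, a difference of -3.20 ± 0.56, and F08F1.9 fell by 2.91 ± 0.37. The 3 with the largest rise were T22B7.7 and F41C6.6, given above, and dbd-20. dbd-20 had -0.12, -0.61, 1.19 and 0.42 in glp-4 and -1.48, -1.66 and -2.65 in wild type, a rise of 2.15 ± 0.71 that lost its call without wild-type batch 4 or glp-4 batch 3.

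**Figure D5:**
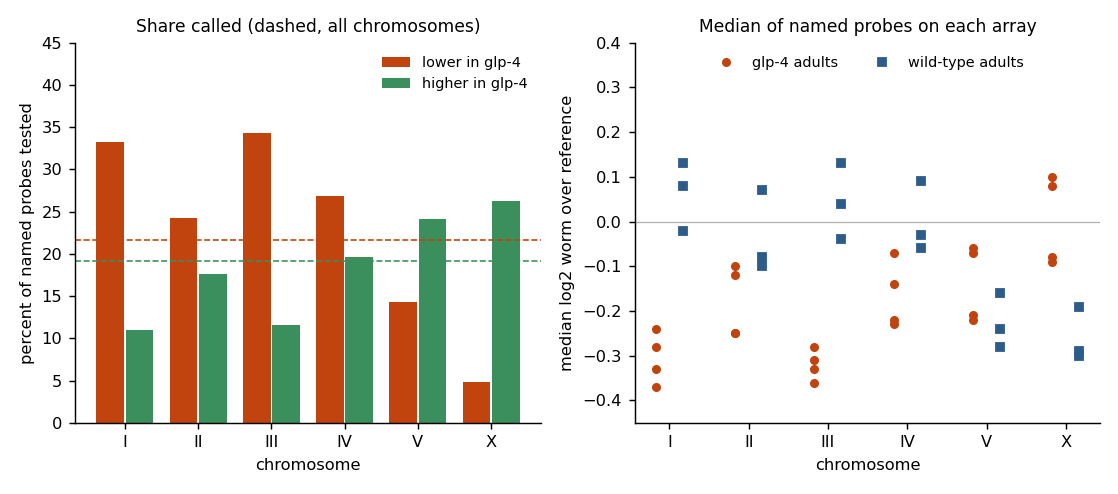
Left, percent of named tested probes called lower or higher in glp-4 adults (y axis) on each chromosome (x axis), with dashed lines at the shares over all chromosomes, 21.6% and 19.2%. Right, median log2 worm over reference of named probes on each array, with circles for glp-4 and squares for wild type. On X 4.85% were lower, and all 4 circles lie above the 3 squares.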

How the data were processed

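The authors deposited a log ratio of the red channel over the green one for each probe on each array, and base 2 (log2) was assumed. The labels name neither the base nor the authors' normalization or spot filter, and with natural logs every fold given would be larger. Red was the reference pool per the labels, so signs were turned to worm over reference. Values were otherwise used as deposited. limma 3.58.1 (R 4.3.3) fitted the 29 reference arrays as 8 group means with 1 spread per probe. The contrast was glp-4 minus wild type, two-sided, for probes with at least 2 values in each group, with Benjamini-Hochberg adjustment and a threshold of 0.05. The fem arrays were fitted alone, with at least 3 values. Errors beside changes are standard errors. Precision is set by the number of arrays, and a p-value reflects the spread among samples that are numbered by worm batch. Same-numbered batches did not deviate together (correlations of 0.126, -0.011 and 0.033), so they were not paired. On simulated adult data with 103 probes changed by 1 log2 unit and 97 changed by 2, 50.5% and 88.7% were called, with 5 false calls among 11402. The simulated noise was independent between arrays, and far fewer probes changed than the 4544 called in the real data. These rates check the fit and do not measure the power or the false calls of the real comparison.

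Members and lists were chosen with earlier results of these data known. Named genes are called, have 7 values, do not overlap and have 1 probe each: the 10 largest changes in each direction, the 8 largest with a sequence name only, the 3 largest on X, and the 2 members of each group with the smallest adjusted p in each direction. Other group members are given to show the range of a group and were chosen after their values were seen. Groups rest on symbols, since the gene tables used hold no descriptions, and 7741 probes had no name. Alternatives were the adult arrays alone, centring, quantile scaling, complete probes, a robust prior, a batch block and leaving out each array.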

Additional observations from a re-analysis of the deposited data

Results flagged for a closer look

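In 27 of the 94 named genes the strain difference in adults differed from that at L4 by limma's interaction test (adjusted p under 0.05), and in all 27 it was further from 0 in adults. The 94 genes were chosen by their adult values, which also enter this difference, so its direction is favoured by the choice and is given as a description. Values here are the adult difference minus the L4 difference in log2. Among genes with a sequence name they were -3.11 for C05C10.5, -2.38 for T19H12.2, -2.25 for EEED8.3, -2.18 for R09F10.8, 1.66 for T22B7.7, 2.55 for C30G12.2 and 1.05 for F55G11.7. Among genes of the germ line and of RNA metabolism they were -2.35 for tost-1, -1.44 for nse-4, -2.08 for sluh-7, -1.28 for syf-1, -1.34 for dkc-1, -1.32 for wdr-4, -1.45 for trmt-6 and -0.98 for npp-24. Genes of transcription, translation and chromatin had -1.16 for rpap-2, -1.08 for gtf-2H3, -1.5 for eif-2A, -1.11 for dph-5 and -1.33 for smrd-1. The remaining values were -1.29 for pgap-1, -1.05 for algn-6, -1.91 for zipt-11, -0.77 for zipt-3, 2.29 for amdh-1, 1.13 for slc-25A21 and 1.36 for gtnt-14.

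In 8 of the 94 genes 1 of the 4 glp-4 arrays lay far from the other 3 by Dixon's criterion, which chance meets in about 1 of 20 groups. Batch 1 was the outlying array in 6 of them, with -2.77 for T01C3.3, -0.87 for rpap-2, 1.16 for endu-1, -1.49 for nlp-55 and 2.11 for dbd-5 as the highest value and -2.30 for hira-1 as the lowest. Batch 3 was lowest for sluh-7, at -2.24, and batch 4 highest for slc-25A21, at 1.53. The array of batch 1 is the one with the code T5, and the part of this in these values was not tested.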

How the results depend on the processing

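The adult count of 4544 probes was 3051 with the adult arrays alone, 4749 with centred arrays, 4231 with quantile scaling, 4324 with complete probes and 4533 with a robust prior, and 3512 to 4520 without single arrays. The higher probes, 2231 in all, were 1249 with the adult arrays alone and 1350 when batch was also a block. With the replicate block on 29 arrays, 4502 adult probes passed, 3896 of them called the same way in the fit without the block, and 486 differences from L4 passed, against 727 without it; the numbers do not pair the samples. The difference from L4 gave 253 with only the 15 arrays and 260 to 1121 without single arrays. With the adult arrays alone the share of higher probes was 4.83% on I, 10.8% on II, 5.62% on III, 12.6% on IV, 13.1% on V, 14.7% on X and 10.8% over all. The same fit left 1 higher gene in purine metabolism, 1 in peroxisomal oxidation, 0 in respiration, 3 in pals and irg, 2 in neuropeptides and 0 in cilia. Without wild-type batch 3 or glp-4 batch 1 the counts of higher genes were 1 in purine metabolism, 1 to 2 in respiration, 3 to 5 in the major facilitator family, 4 to 5 in proteases, 1 in bus and 1 to 2 in cilia. Of the 94 named genes, 14 lost their call in 1 to 8 alternatives and 0 changed direction over 1316 gene and setting pairs. Each array holds ratios alone, and no further spot was removed here for a weak signal, so the precision of a dim spot is unknown.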

Other observations

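Runs of neighbouring genes called in the same direction were looked for along the protein-coding genes of assembly WBcel235, and the genes below were chosen after their values were seen. There were 4 runs of 4 genes, 2 lower and 2 higher, and 17 runs of 3, of which 7 were lower and 10 higher. Of tested probes with a place in the gene table, 21.6% were lower and 19.2% higher. How many runs these shares alone would give was not tested. On chromosome II msrp-5, msrp-6, D2062.5 and D2062.4 changed by -1.67 ± 0.33, -1.53 ± 0.25, -0.57 ± 0.19 and -0.73 ± 0.19, and all 4 were higher in fem-3, by 2.81 to 4.17. On chromosome IV B0001.5, B0001.3, B0001.2 and B0001.7 changed by -1.16 ± 0.33, -1.8 ± 0.23, -2.06 ± 0.34 and -2.47 ± 0.23. On chromosome V F35E12.6, irg-5, F35E12.9 and F35E12.10 rose by 1.5 ± 0.28, 1.68 ± 0.59, 1.83 ± 0.30 and 1.1 ± 0.27, and R07B7.6, R07B7.9, R07B7.8 and R07B7.10 rose by 0.90 ± 0.24, 0.69 ± 0.14, 0.80 ± 0.24 and 0.83 ± 0.21. Whether probes of neighbouring genes share sequence was not tested.

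Of 301 tested pseudogenes 46 were lower and 30 higher in glp-4 adults, smaller shares than the 20.3% and 19.6% of all tested probes. A further 7 probes had values on all 3 wild-type arrays and on no glp-4 array, and 6 had values on all 4 glp-4 arrays and on no wild-type array; none of them was tested.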
